A study of Mus musculus with 8 samples.

Results

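The 10 genes followed here belong to the canonical Wnt pathway and restrain the signal or carry it, and they were measured in adult oligodendrocyte progenitor cells (aOPC) and adult oligodendrocytes (aOL) of the mouse brain. They were taken as a named list, namely the transducer Ctnnb1, the co-receptors Lrp5 and Lrp6, the adaptor Daam2, the destruction complex genes Apc, Axin1, Axin2 and Gsk3b, and the surface brakes Rnf43 and Apcdd1. Of these, 9 were among the 11315 genes with an RNA value, and Lrp5 was not listed there. All 10 had hydroxymethylation reads, in 726 of 1497075 records, where a record is 1 CpG on 1 strand whose promoter, exon or intron annotation named the gene. The transcriptome (RNA-sequencing) and DNA hydroxymethylation (reduced representation hydroxymethylation profiling, RRHP) were profiled in cells sorted by fluorescence at postnatal day 60, with 2 libraries for each population and assay. aOPC came from Pdgfra-H2BEGFP mice, in which green fluorescence follows the Pdgfra locus, and aOL were sorted from mice of a different line, whose EGFP labels oligodendrocytes. Both lines were on a C57BL/6 background, mice of either sex were used and the labels name no treatment. The populations therefore differed in reporter line as well as in cell type, and these cannot be told apart.

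The labels and the markers limit what the names of the populations carry. The tissue label of the aOL RRHP libraries names the Pdgfra reporter although their titles name the other line, and the titles of the aOL RNA libraries say pre-myelinating where the protocol says myelinating, so the titles set the groups. Of 9 progenitor markers, 4 (Pdgfra, Neu4, Vcan and Sox6) were lower in aOL without overlap, 1 (Matn4) was higher and 4 overlapped. The log2 of their summed level was 13.25 and 10.15 in aOPC compared with 10.99 and 11.37 in aOL. The lower aOPC value, that of replicate 3, lay below both aOL libraries. Pdgfra, the receptor that defines progenitors, had log2 RNA values of 7.54 and 5.47 in aOPC compared with 4.98 and 1.63 in aOL. Of 8 oligodendrocyte markers, 3 (Mog, Opalin and Aspa) were lower in aOL without overlap, 1 (Cnp) was higher and 4 were neither. Mog, a myelin gene of mature oligodendrocytes, had values of 17.59 and 17.76 in aOPC compared with 16.89 and 17.16 in aOL. Opalin, another gene of mature oligodendrocytes, had 16.13 and 15.88 in aOPC compared with 14.88 and 15.17 in aOL. Cnp, a myelin enzyme gene, had 19.40 and 19.28 in aOPC compared with 19.58 and 19.58 in aOL. These myelin genes were thus high in all 4 libraries, with no common direction. In such bulk libraries, fewer cells of a type and less RNA per cell cannot be told apart.

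In canonical Wnt signalling, a Wnt ligand joins a Frizzled receptor to LRP5 or LRP6 at the cell surface. Without ligand, a destruction complex built on APC and the AXIN scaffolds lets the kinase GSK3B mark β-catenin, the product of Ctnnb1, for degradation. With ligand, the complex is recruited to the membrane, β-catenin accumulates and enters the nucleus, and it turns on targets with TCF factors, among them Axin2, which feeds back on the signal. RNF43 removes Frizzled receptors from the surface, and APCDD1 binds Wnt and LRP proteins outside the cell. In the oligodendrocyte lineage, high Wnt activity is known to hold progenitors back from differentiating. 5-hydroxymethylcytosine (5hmC), the mark read by RRHP, is made from 5-methylcytosine by TET enzymes. RRHP reads it at CCGG, the site of the enzyme MspI: a site whose inner cytosine is hydroxymethylated is protected, keeps its adapter and yields reads.

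The sequences that carry the site results are short genomic stretches of 30 bases, given 5′ to 3′ on the strand of the gene from the RefSeq GRCm38 genome, the same assembly as mm10. Capitals mark the CCGG that RRHP reads. The first 6 held a record that differed between the populations (called, at an adjusted p under 0.05), and the last 3 are the most-read sites of Lrp6, Axin2 and Gsk3b, shown for contrast, which did not.
Lrp6 intron 2, chr6:134535323-134535352, minus strand: gctgcattcctaaCCGGcagcttagatttt
Lrp6 intron 22, chr6:134451902-134451931, minus strand: taggactgtatacCCGGgtacccacagaaa
Daam2 intron 1, chr17:49536290-49536319, minus strand: gctcttggagagtCCGGgtatccatggagg
Daam2 intron 1, chr17:49534093-49534122, minus strand: cgtaactccagctCCGGtgaatctgacacc
Daam2 intron 1, chr17:49533630-49533659, minus strand: cacatttcctgttCCGGtctcacttctgac
Rnf43 intron 2, chr11:87710051-87710080, plus strand: ccagcagtaaagtCCGGagctcagcggagc
Lrp6 intron 1, chr6:134546989-134547018, minus strand: tgtaccttggatgCCGGgctggttaccaac
Axin2 exon 5, chr11:108942024-108942053, plus strand: ggctgcagcagatCCGGgaggtaggacagg
Gsk3b intron 1, chr16:38135485-38135514, plus strand: gtgtgctttaaccCCGGgatttggagcgga
Apart from the CCGG itself, no sequence feature was searched in these stretches.

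RNA of the members was compared first, to ask whether the brakes and transducers of the pathway differ between progenitors and oligodendrocytes. No member passed the test, while 7 of 9 had both aOL libraries above both aOPC libraries, and none had the reverse. Of all 11133 genes tested, 31.9% had this pattern in that direction and 29.9% had the reverse. None of the 9 was called by limma (p under 0.01 and Benjamini-Hochberg adjusted p under 0.05 over all genes), where 0.0808% of all genes were called. At an unadjusted p under 0.05, 4 members were higher and 0 lower, against 12.1% and 12% of all genes. The mean was higher in aOL for 8 of 9, against 51.3% of all genes. The median difference of the members was 0.82 on the log2 scale, beside 0.02 for all genes tested. The RNA values are normalized log2 values as deposited, and no read counts lie behind them here, so the depth per gene is unknown.

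**Figure D1:**
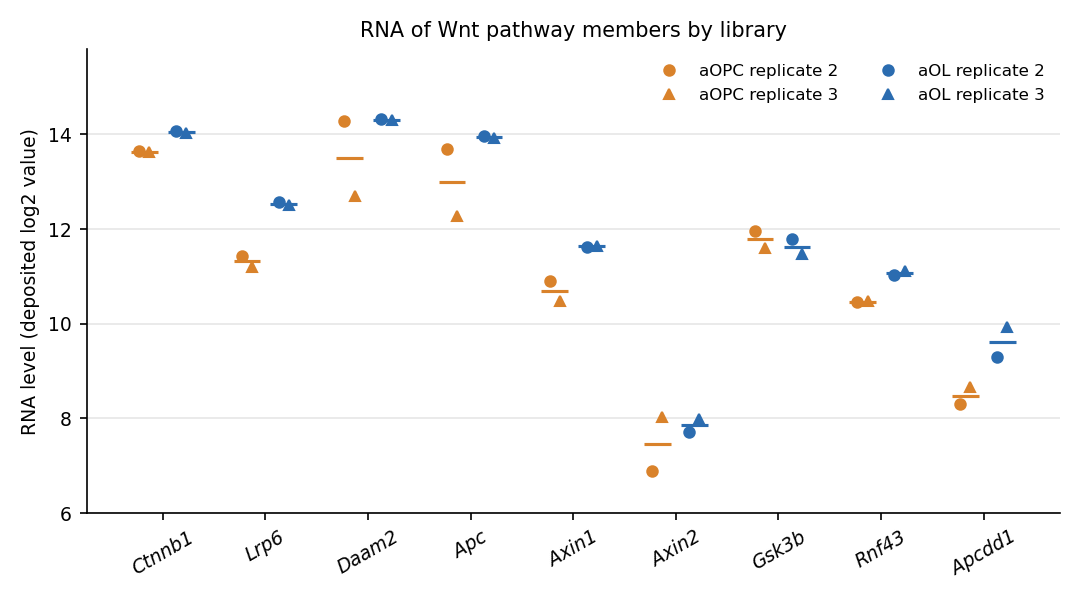
RNA level of the 9 members with a value, as the deposited log2 value (vertical axis), in the 2 aOPC libraries (orange) and the 2 aOL libraries (blue), with a bar at the mean of each population. In 7 members both blue points lie above both orange points, while Axin2 and Gsk3b overlap, and the aOPC points of Daam2, Apc and Axin2 are over 1 log2 unit apart.

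Ctnnb1, which encodes β-catenin, the transducer at the centre of the pathway, lies on chromosome 9 from 120933400 to 120960507. Its log2 RNA values were 13.65 and 13.62 in aOPC compared with 14.08 and 14.02 in aOL. The populations did not overlap and the replicates lay close together, with a difference of 0.41 (SE 0.19, limma adjusted p = 0.262). Ctnnb1 was the most abundant member when levels were set per length. Its deposited log2 value less the log2 of its exon length in kb had a mean of 11.26 in aOPC and 11.67 in aOL.

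Lrp6, the co-receptor that is phosphorylated when Wnt binds and then recruits AXIN, lies on chromosome 6 from 134446476 to 134566913. It had the lowest p of all members. Its log2 values were 11.44 and 11.20 in aOPC compared with 12.57 and 12.50 in aOL, so that aOL was higher in both libraries by more than the spread of either population. The difference was 1.21 (SE 0.20), a 2.32-fold higher level, with an unadjusted p of 0.00351 and a limma adjusted p of 0.127. Without aOPC replicate 2 it was 1.34, and without aOPC replicate 3 it was 1.09. With 1 library left in a population, that library is assumed to vary like the others. The SD between replicates was larger in aOPC (0.91 log2 units) than in aOL (0.40), so these fits are given by their differences.

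Daam2, a formin that couples Wnt receptor complexes to dishevelled and is known as an inhibitor of oligodendrocyte differentiation, lies on chromosome 17 from 49456022 to 49564459. Its log2 values were 14.29 and 12.70 in aOPC compared with 14.33 and 14.30 in aOL. One aOPC library stood at the aOL level and the other far below it. The difference was 0.82 (SE 0.58, limma adjusted p = 0.428). It was 1.62 without aOPC replicate 2 and 0.023 without aOPC replicate 3, so this value was decided by 1 library.

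Of the destruction complex genes, Apc and Axin1 were higher in both aOL libraries and Axin2 and Gsk3b overlapped, none past the threshold. Apc, the scaffold lost in intestinal tumours (chromosome 18, from 34220297 to 34322190), had log2 values of 13.70 and 12.29 in aOPC compared with 13.98 and 13.92 in aOL, a difference of 0.95 (SE 0.52, limma adjusted p = 0.329). As for Daam2, aOPC replicate 2 lay near the aOL libraries and replicate 3 well below. The Apc difference was 1.66 without aOPC replicate 2 and 0.25 without aOPC replicate 3. Axin1, the scaffold present in most cells (chromosome 17, from 26131217 to 26195811), had values of 10.91 and 10.49 in aOPC compared with 11.62 and 11.65 in aOL. The difference of 0.94 (SE 0.24) had an unadjusted p of 0.0154 and a limma adjusted p of 0.153. It was 1.15 without aOPC replicate 2 and 0.72 without aOPC replicate 3.

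Axin2, the feedback scaffold and a common readout of Wnt activity, lies on chromosome 11 from 108917828 to 108950783. Its log2 values were 6.88 and 8.04 in aOPC compared with 7.72 and 8.0 in aOL. The aOL values lay between the aOPC values, with a difference of 0.40 (SE 0.45, limma adjusted p = 0.610) that turned to -0.18 without aOPC replicate 2. Axin2 was thus a member for which no direction could be read. Gsk3b, the kinase of the complex (chromosome 16, from 38089001 to 38246084), was the only member with a lower mean in aOL. Its values were 11.97 and 11.60 in aOPC compared with 11.80 and 11.47 in aOL, and the populations overlapped. The difference of -0.15 (SE 0.25, limma adjusted p = 0.725) turned to 0.031 without aOPC replicate 2 and to 0.011 without aOL replicate 3.

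The genes whose RNA pattern was closest to that of Axin2 were found by the distance between their 4 log2 values, each gene centred on its own mean. They were Mamld1, at a distance of 0.13 log2 units, Phf13 at 0.15 and Fam185a at 0.15. All 3 shared with Axin2 a low value in aOPC replicate 2 beside a higher value in aOPC replicate 3. Mamld1 had values of 6.14 and 7.45 in aOPC compared with 7.01 and 7.26 in aOL.

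Both surface brakes were higher in both aOL libraries. Rnf43, the ubiquitin ligase that clears Frizzled (chromosome 11, from 87663087 to 87735539), had log2 values of 10.45 and 10.49 in aOPC compared with 11.03 and 11.12 in aOL. The difference was 0.61 (SE 0.19), with an unadjusted p of 0.0296 and a limma adjusted p of 0.178. Its aOPC replicates, like those of Ctnnb1, lay closer together than those of the other members. Apcdd1, an inhibitor in the cell membrane (chromosome 18, from 62922327 to 62953815), had values of 8.30 and 8.67 in aOPC compared with 9.29 and 9.93 in aOL. Its difference was 1.13 (SE 0.32), with an unadjusted p of 0.0218 and a limma adjusted p of 0.165. Apcdd1 is also known from brain endothelial cells, of whose 8 markers only Cldn5 and Kdr were listed. Both were higher in aOL without overlap, with 0.33 and 1.80 in aOPC compared with 5.92 and 7.13 in aOL for Cldn5. The log2 of their summed level, most of it from Kdr, was 9.07 to 9.37 in aOPC and 9.83 to 10.2 in aOL, and its part in the Apcdd1 result was not tested.

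Set per kb of exon, the members spanned a wide range in both populations. In aOL the order of mean log2 levels per kb was Ctnnb1 (11.67), Daam2 (11.03), Apc (9.94), Axin1 (9.70), Lrp6 (8.76), Rnf43 (8.36), Gsk3b (8.33), Apcdd1 (5.92) and Axin2 (5.40). Rnf43 and Gsk3b differed by less than the spread of the Gsk3b libraries (SD 0.23, n = 2). In aOPC the mean levels per kb of Daam2 (10.21), Apc (8.98), Axin1 (8.76) and Gsk3b (8.49) followed Ctnnb1. The aOPC replicates of Daam2 and Apc were further apart (SD 1.13 and 1.0, n = 2) than the gaps from Apc to Axin1 and Gsk3b, so the order there was not set. Axin2 and Apcdd1 were the least abundant members per length in both populations.

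Gene body hydroxymethylation was compared next, on RRHP counts summed over the exon and intron records of each gene. No member was called by edgeR's quasi-likelihood test or by DESeq2 (0 of 10 by either), where edgeR called 0.849% of the 18488 bodies tested. At an unadjusted p under 0.05 by edgeR, 1 member was higher in aOL (Gsk3b) and 1 lower (Apc), against 2.82% and 4.48% of all bodies. In CPM, the count scaled to a common library total, 2 members had both aOL libraries above both aOPC libraries and 3 the reverse, against 21% and 17.8% of all bodies. The median log2 difference over the 10 members was 0.0023.

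**Figure D2:**
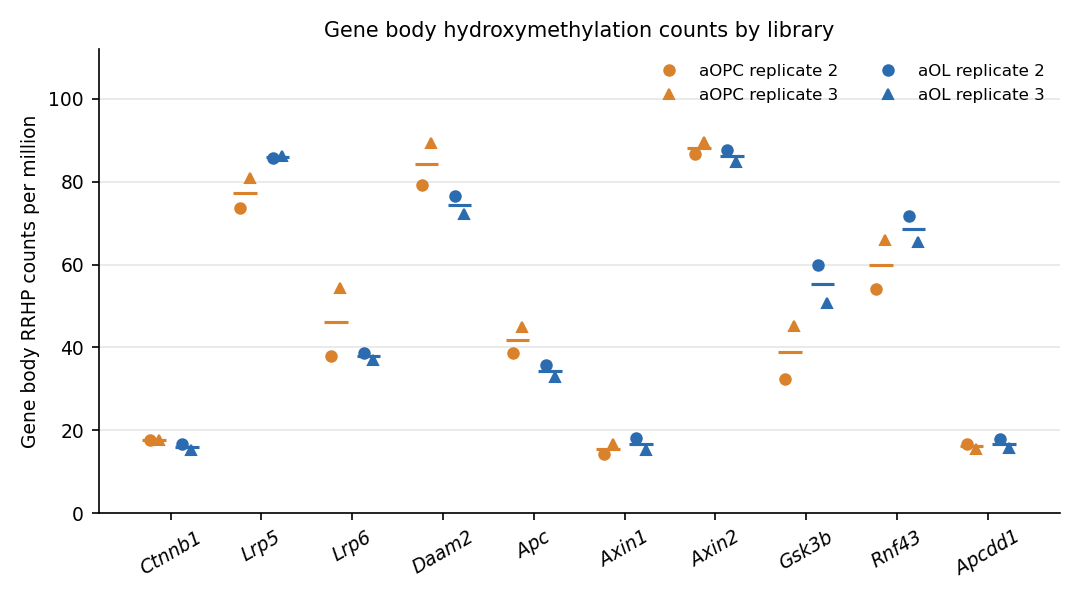
RRHP counts, scaled to a common library total (CPM) and summed over exon and intron records (vertical axis, from 0) of the 10 members in the 2 aOPC libraries (orange) and the 2 aOL libraries (blue), with a bar at each mean. Gsk3b and Lrp5 are higher in both aOL libraries, Apc, Daam2 and Ctnnb1 are lower in both, and Axin2 lies between 84.8 and 89.7 in all 4.

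Gsk3b had the largest body difference among the members. Its 67 body records held 230 and 774 counts in aOPC compared with 954 and 1374 in aOL, which is 32.3 and 45.2 CPM against 59.9 and 50.8 CPM. The aOL libraries were both higher, yet the libraries within each population were also apart. The log2 difference was 0.48 (SE 0.17), with an edgeR unadjusted p of 0.0171 and an adjusted p of 0.491. It was 0.26 without aOPC replicate 2 and 0.78 without aOPC replicate 3, so its size depended on 1 library.

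Body counts of Apc, Daam2 and Ctnnb1 were lower in both aOL libraries than in either aOPC library, and those of Lrp6 had a lower mean with overlap, none past the threshold. Apc had 38.7 and 45.0 CPM in aOPC compared with 35.8 and 32.9 CPM in aOL. Its log2 difference of -0.31 (SE 0.14, edgeR adjusted p = 0.677) was -0.42 without aOPC replicate 2 and -0.16 without aOPC replicate 3. Lrp6 had 37.8 and 54.3 CPM in aOPC compared with 38.7 and 37.0 CPM in aOL, so that 1 aOPC library stood above the other 3. Its log2 difference was -0.31 (SE 0.17, edgeR adjusted p = 0.730), -0.54 without aOPC replicate 2 and 0.015 without aOPC replicate 3. When the sums were restricted to records with at least 3 reads in every library, the Lrp6 difference was 0.29 and that of Apc was -0.02. The sign for Lrp6 therefore depended on records with fewer than 3 reads in at least 1 library. These include the called Lrp6 records described below, which were at or near 0 in aOL, so the filter is not independent of the difference. Daam2 had 79.3 and 89.4 CPM in aOPC compared with 76.5 and 72.1 CPM in aOL (log2 difference -0.20, SE 0.13, edgeR adjusted p = 0.755), which was -0.082 without aOPC replicate 3. Ctnnb1 had 17.6 and 17.5 CPM in aOPC compared with 16.6 and 15.3 CPM in aOL (log2 difference -0.15, SE 0.15, edgeR adjusted p = 0.818).

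The remaining bodies differed little. Axin2, with the most body records of any member (134), had 86.7 and 89.7 CPM in aOPC compared with 87.7 and 84.8 CPM in aOL, a log2 difference of -0.04 (SE 0.12, edgeR adjusted p = 0.932). Lrp5, the second co-receptor (chromosome 19, from 3584825 to 3686585), which had no RNA value, had 73.7 and 80.8 CPM in aOPC compared with 85.8 and 86.3 CPM in aOL. Its log2 difference was 0.14 (SE 0.12, edgeR adjusted p = 0.797). Rnf43 had 54.1 and 65.8 CPM in aOPC against 71.8 and 65.5 CPM in aOL (0.17, SE 0.14, edgeR adjusted p = 0.789). The Rnf43 difference was 0.035 without aOPC replicate 2 and 0.35 without aOPC replicate 3. Axin1 and Apcdd1 had between 14.3 and 18.2 CPM in every library, with log2 differences of 0.08 and 0.05.

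**Figure D3:**
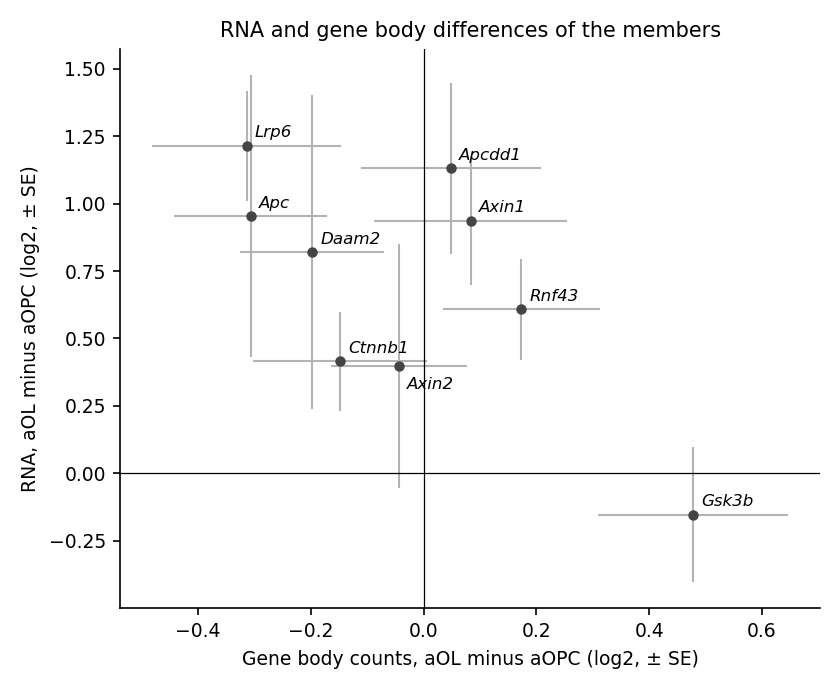
Difference between aOL and aOPC of the 9 members with both readouts, in gene body RRHP counts (horizontal axis, log2) and RNA (vertical axis, log2), with bars of 1 SE in each direction. Lrp6, Apc, Daam2, Ctnnb1 and Axin2 had higher mean RNA and lower mean body counts in aOL, and Gsk3b had higher body counts and an RNA difference of -0.15.

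Promoter counts of the members were low in both populations, and their comparison had little depth. The 174 promoter records of the members held 323 and 352 counts in aOPC compared with 339 and 720 in aOL. Per record this was 0.118 to 0.261 CPM, against 0.766 to 0.926 CPM in body records outside promoters. Over the whole series, promoter records held 0.233 to 0.409 CPM and body records outside promoters 0.817 to 0.929 CPM. The highest promoter value of the members came from aOPC replicate 2, which also held the largest share of its counts in CpG islands (5.74% against 2.38% to 3.32% in the other libraries). No member promoter was called by edgeR or DESeq2 (0 of 9 tested), against 0.768% of 14579 promoters, and 0 had an unadjusted p under 0.05 by edgeR in either direction (4.18% higher and 1.79% lower among all promoters). The largest log2 difference was that of Lrp5, at 0.76 (SE 0.50, edgeR adjusted p = 0.998), from 6.33 and 6.6 CPM in aOPC compared with 8.67 and 8.09 CPM in aOL. These CPM carry no TMM factors, which the fit used and which ranged from 0.757 in aOL replicate 2 to 1.75 in aOPC replicate 2, and with library totals alone the difference was 0.37 (edgeR adjusted p = 0.774). It was 0.29 without aOPC replicate 2 and 1.48 without aOPC replicate 3, so it rested on single aOPC libraries. In CPM, Lrp5 was the 1 promoter higher in both aOL libraries (6.8% of all promoters), and Apc and Axin1 were the 2 lower in both (20.7%). Rnf43 had 1 promoter record, with 1 read in 1 library, and was not tested.

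Single sites showed where the reads of these genes lay. The 726 member records fell on 550 CCGG sites, all of which were CCGG in the reference. Of the 172 records in CpG islands, 0 reached the 10 reads in at least 2 libraries needed for a test, whereas 226 of the 554 outside islands did. In the whole series, 2.92% of island records and 33.1% of others were tested. The members with the largest share of island records were Ctnnb1 (60.5%) and Apcdd1 (46.3%), and each kept 7 tested records, while Daam2 and Rnf43 had none in islands and kept 38 and 32. What could be compared in these genes was thus mostly intronic DNA outside islands.

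Of the 226 tested member records, 9 were called by edgeR, 3 higher and 6 lower in aOL. Over all 443062 records tested, 2.29% were called, 1.21% higher and 1.08% lower. The called records lay in Daam2 (3), Apc (3), Lrp6 (2) and Rnf43 (1), and none lay in Ctnnb1, Lrp5, Axin1, Axin2, Gsk3b or Apcdd1. In 8 of the 9, both libraries of 1 population had 3 counts or fewer, which was the case for 76.4% of all called records and, called and low together, for 1.75% of all tested records. A count of 3, taken as the floor for each library, is 0.422 and 0.175 CPM in aOPC compared with 0.188 and 0.111 CPM in aOL. Such records were read in 1 population and were at or near 0 in the other.

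**Figure D4:**
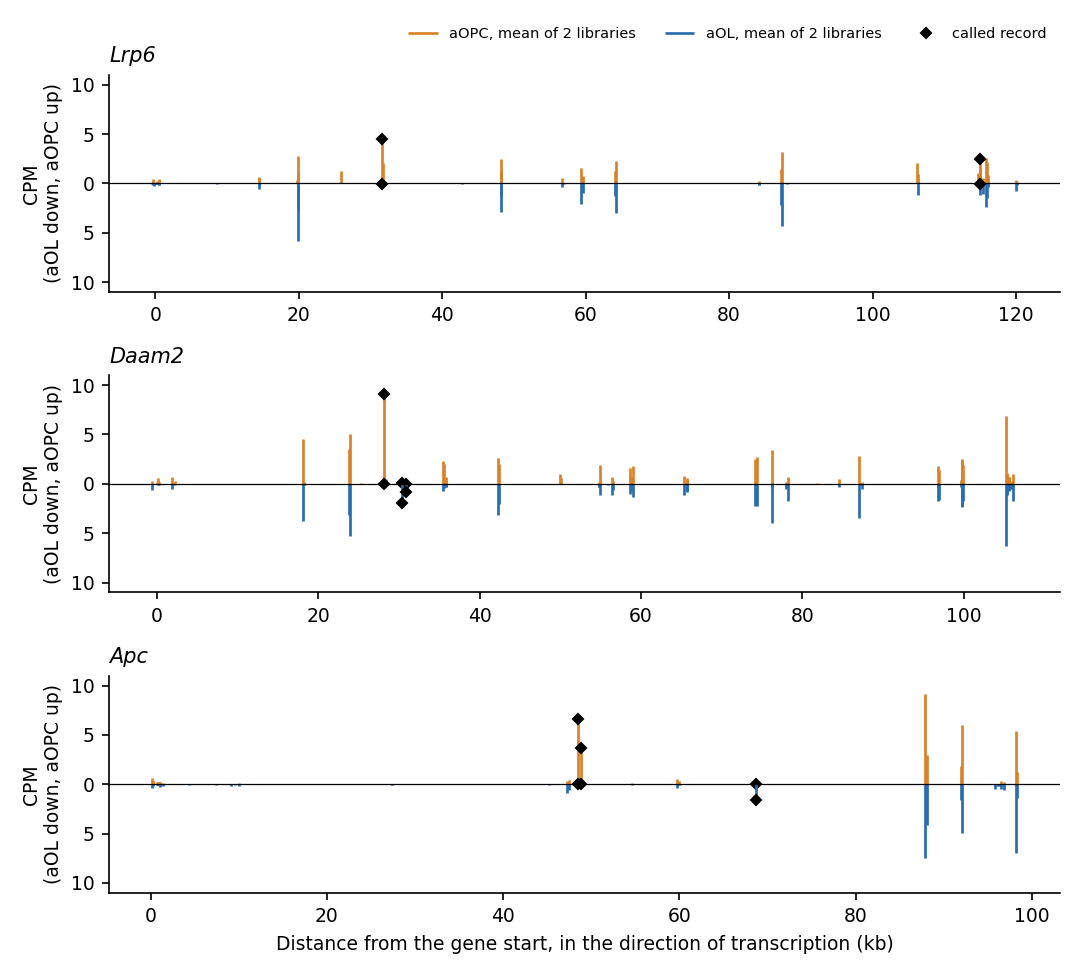
Mean RRHP level (CPM) of each record along Lrp6, Daam2 and Apc, drawn upwards for aOPC (orange) and downwards for aOL (blue), against the distance from the gene start in kb. Black diamonds mark the means of the called records in both populations. At the called records one side is at or near 0, while most other records have bars of like height on both sides.

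In Lrp6 both called records were lower in aOL. The record in intron 2 (position 134535338 of chromosome 6, minus strand) had 18 and 110 counts in aOPC compared with 1 and 1 in aOL. The ratio of aOPC to aOL in counts scaled to library totals was 114, with an exact 95% interval of 30.8 to 947 that covers counting error only (edgeR adjusted p = 2.2e-05). A CCGG and the next one downstream are the ends of 1 MspI fragment, read separately. The other end of this fragment, 110 bases long, had 9 and 50 counts in aOPC compared with 0 and 0 in aOL. Both ends of the fragment thus carried the same contrast.

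The Lrp6 record in intron 22 (position 134451916, plus strand) had 18 and 41 counts in aOPC compared with 0 and 1 in aOL, a ratio of 105 (exact 95% interval 18.1 to 4202, edgeR adjusted p = 9.1e-05). The other end of its fragment of 228 bases had 8 and 15 counts against 0 and 0. The opposite strand of the same CCGG, which belongs to the neighbouring fragment, was read in all 4 libraries, with 14 and 18 counts in aOPC compared with 19 and 33 in aOL. At this CCGG the contrast was therefore confined to the reads of 1 of the 2 fragments that meet there.

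Not all of Lrp6 pointed to lower counts in aOL. The most-read record of the gene, in intron 1 (position 134547003, plus strand), had 18 and 50 counts in aOPC compared with 101 and 146 in aOL. This is 2.53 and 2.92 CPM against 6.34 and 5.40 CPM, a log2 difference of 0.99 (SE 0.30) with an unadjusted p of 0.00495 and an edgeR adjusted p of 0.145. The other end of its fragment, 50 bases long, had 8 and 15 counts against 41 and 71, with a log2 difference of 1.34 (SE 0.41, edgeR adjusted p = 0.148). Of the 17 tested Lrp6 records that were not called, the median log2 difference was 0.26. They ranged from -0.63 to 2.14, so uncalled records lay on both sides of 0.

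Daam2 had called records in both directions within intron 1. The record at position 49536305 of chromosome 17 (minus strand) had 61 and 165 counts in aOPC compared with 0 and 0 in aOL, at least 60.9-fold lower in aOL against the floor of 3 counts per library (edgeR adjusted p = 3.4e-06). The other end of its fragment of 214 bases had 3 and 9 counts against 0 and 0. Less than 3 kb away, a fragment of 463 bases showed the reverse at both ends. Its end at position 49534108 (minus strand) had 1 and 0 counts in aOPC compared with 39 and 38 in aOL, a ratio of aOL to aOPC of 43.4 (exact 95% interval 7.56 to 1737, edgeR adjusted p = 0.00364). Its end at position 49533644 (plus strand) had 0 and 0 counts in aOPC compared with 15 and 18 in aOL, at least 2.69-fold higher in aOL (edgeR adjusted p = 0.0185, and no adjusted p in DESeq2). The most-read Daam2 record, in exon 25 of 26, did not follow either pattern, with 7.87 and 5.84 CPM in aOPC compared with 6.41 and 6.25 CPM in aOL. Among the 35 tested Daam2 records that were not called, the log2 difference ranged from -2.23 to 1.05, with a median of -0.15.

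With the genome split into fixed windows of 2 kb, Apc held the 1 window in which 2 or more called sites shared a direction and none had the other, at chromosome 18 from 34268001 to 34270000. Its 2 called records were the ends of 1 fragment of 251 bases. The record in intron 3 (position 34268830, plus strand) had 33 and 148 counts in aOPC compared with 0 and 0 in aOL, at least 44.4-fold lower in aOL (edgeR adjusted p = 6.5e-06). The record in exon 4 of 16 (position 34269082, minus strand) had 28 and 59 counts in aOPC and none in either aOL library, a level at least 24.7-fold lower in aOL (edgeR adjusted p = 2.6e-05). The window thus rested on reads of a single fragment, and the number of such windows over the genome is not given here. The 2 Daam2 records higher in aOL at positions 49533644 and 49534108 lay closer together than 2 kb but fell on either side of a window border, so the count of windows missed them. Another called Apc record, in intron 7 (position 34288945, plus strand), had 0 and 0 counts in aOPC compared with 28 and 37 in aOL, at least 5.24-fold higher in aOL (edgeR adjusted p = 0.00151). The other end of its fragment of 938 bases had 0 counts in all 4 libraries and did not carry the contrast. The most-read Apc record, in intron 14, had 10.3 and 8.0 CPM in aOPC compared with 7.60 and 7.39 CPM in aOL (log2 difference -0.38, SE 0.28, edgeR adjusted p = 0.746).

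Rnf43 had the only called record with more than 3 counts in every library. It lay in intron 2 (position 87710066 of chromosome 11, minus strand) and had 17 and 23 counts in aOPC compared with 7 and 10 in aOL, or 2.39 and 1.34 CPM against 0.440 and 0.370 CPM. The log2 difference was -2.23 (SE 0.54, edgeR adjusted p = 0.0428), with aOL lower in both libraries. The other end of its fragment of 96 bases had 2 and 5 counts in aOPC compared with 4 and 6 in aOL and did not share the difference. This call was lost with DESeq2 (adjusted p = 0.145) and without any of aOPC replicate 2, aOL replicate 2 or aOL replicate 3, with log2 differences from -2.29 to -1.72 in these fits.

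Records read in 1 population were not spread evenly over the genome. In bins of 5 Mb, the share of tested records that were called in this way was 5.11% around Lrp6 (rank 54 of 546 bins), 4.80% around Apc (rank 58) and 2.47% around Daam2 (rank 104), beside 1.75% over all records. Of the members without such records, Ctnnb1 lay in a bin with 7.11% (rank 38), the highest share around any member, and Axin1 in one with 3.22% (rank 91). The other 5 lay in bins below the overall share, with 0.751% around Lrp5 (rank 219), 0.531% around Axin2 (rank 291), 0.321% around Apcdd1 (rank 384), 0.294% around Rnf43 (rank 401) and 0.104% around Gsk3b (rank 499). Members with and without such records thus lay in bins above the overall share, and the part of the surrounding region in these calls was not tested.

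Gsk3b and Axin2 carried no called record, with different spreads. Of 22 tested Gsk3b records, 18 had a higher level in aOL, with a median log2 difference of 0.39. At an unadjusted p under 0.05, 4 of them were higher and 1 lower, where 5.45% and 4.31% of all tested records were. Both ends of a fragment in Gsk3b were among them, with 6 and 42 counts in aOPC compared with 75 and 101 in aOL at position 38218987 (log2 difference 1.11, SE 0.37, edgeR adjusted p = 0.226). At position 38219319 the counts were 11 and 47 in aOPC compared with 69 and 140 in aOL (0.99, SE 0.33, edgeR adjusted p = 0.216). Of 36 tested Axin2 records, 19 were higher and 17 lower, with a median of 0.03 and 0 at an unadjusted p under 0.05. The most-read record of all members was in exon 5 of Axin2, with 14.2 and 9.05 CPM in aOPC compared with 9.17 and 8.46 CPM in aOL. In sites as in sums, Axin2 showed no difference beyond the spread of its replicates, while more Gsk3b records were higher than lower in aOL, none past the threshold. Records of a gene are read in the same 4 libraries and are not independent. The share of all tested records that were higher in aOL is not given here.

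The other members had no called record either. Axin1 had 7 of 8 tested records higher in aOL (median log2 difference 0.34), yet its most-read record, in intron 6, was lower, with 6.61 and 3.85 CPM in aOPC compared with 3.45 and 2.0 CPM in aOL (-1.04, SE 0.38, edgeR adjusted p = 0.294). Lrp5 had 29 of 45 records higher and 16 lower, with a median of 0.10. In Ctnnb1 2 of 7 and in Apcdd1 2 of 7 tested records were higher, with medians of -0.26 and -0.16. In all, 11 member records were higher and 13 lower at an unadjusted p under 0.05, called records included.

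A wider list of 117 further Wnt genes, grouped by role, placed the members among their pathway. In RNA, 73 were listed and 71 tested, and limma called 0, against 0.0808% of all genes. At an unadjusted p under 0.05, 9 were higher and 4 lower in aOL, against 12.1% and 12% of all genes. The median log2 difference was 0.05, close to that of all genes. Without overlap between the populations, 22 were higher and 16 lower, against 31.9% and 29.9% of all genes.

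**Figure D5:**
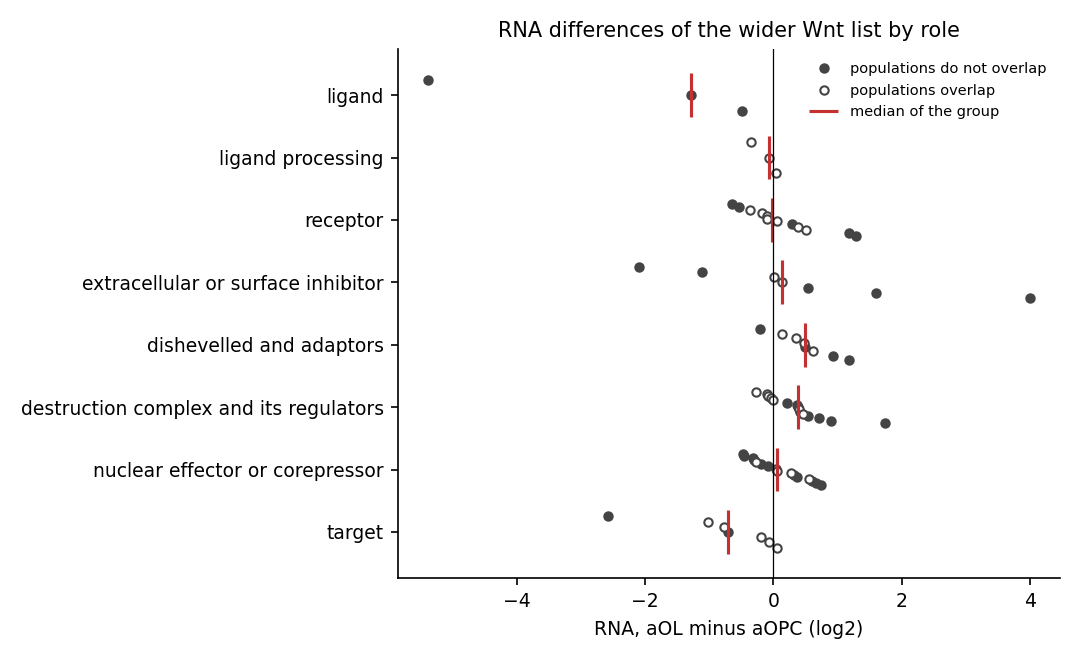
RNA difference between aOL and aOPC (horizontal axis, log2) of the 71 tested genes of the wider Wnt list, 1 point each, by role (vertical axis). Filled points have no overlap between the populations, and the red bar is the median of the role, which is 0.38 for the destruction complex and its regulators and -1.29 for the 3 ligands.

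Among the regulators of the destruction complex, 8 of 15 were higher without overlap and 0 lower, against 31.9% and 29.9% of all genes, with a median of 0.38. Tnks, the tankyrase that targets AXIN for degradation, had log2 values of 11.47 and 11.33 in aOPC compared with 13.30 and 12.97 in aOL (difference 1.73, SE 0.22, limma adjusted p = 0.111). Its relative Tnks2 differed by 0.71 (SE 0.23, limma adjusted p = 0.190) and Fbxw11, a β-TrCP ubiquitin ligase subunit for β-catenin, by 0.90 (SE 0.26, limma adjusted p = 0.170). Of 8 dishevelled genes and adaptors, 3 were higher without overlap, beside the same 31.9%, namely Dixdc1 (1.18, SE 0.45, limma adjusted p = 0.217), Dvl3 (0.92) and Dvl2 (0.49, SE 0.23, limma adjusted p = 0.280), and 1 was lower. Without aOPC replicate 3 the difference was 0.59 for Dixdc1 and 0.29 for Dvl2.

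Of 23 ligands on the wider list, only 3 had an RNA value. These 3 ligands and 2 of 7 tested targets were lower without overlap, against 29.9% of all genes. No ligand or target with a value was higher without overlap, against 31.9% of all genes. Rspo3, an R-spondin ligand that protects Frizzled from RNF43, had log2 values of 7.67 and 7.85 in aOPC compared with 0.32 and 4.46 in aOL. The value of 0.32 was the lowest value listed in that library, so no difference is given for Rspo3. Wnt5b differed by -1.29 (SE 0.52, limma adjusted p = 0.235), with -1.95 without aOPC replicate 2 and -0.62 without aOPC replicate 3, and Wnt3 by -0.48. The target Id2, an inhibitor of differentiation, had log2 values of 9.99 and 9.26 in aOPC compared with 6.85 and 7.24 in aOL (-2.58, SE 0.34, limma adjusted p = 0.112), and Bambi differed by -0.71 (-0.47 without aOL replicate 3). Fibroblast markers moved with this group: 4 of 5 were listed, all 4 were lower in aOL without overlap, and the log2 of their summed level was 11.3 to 11.5 in aOPC and 6.81 to 8.27 in aOL. Of 7 listed microglia markers 3, and of 5 listed neuron markers 3, were also lower in aOL without overlap and none higher. The log2 of the summed level of the microglia markers overlapped between the populations, from 11.58 in an aOL library to 12.42 in an aOPC library. That of the neuron markers was 12.11 to 12.45 in aOPC compared with 11.66 to 11.82 in aOL. The part of these markers in the values of the ligands was not tested.

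Receptors and extracellular inhibitors were mixed. Lgr4, a receptor for R-spondins, differed by 1.18 (SE 0.23, limma adjusted p = 0.133) and Adgra2, a co-activator of Wnt7 signalling known from brain vessels, by 1.29 (SE 0.30, limma adjusted p = 0.145), while Fzd2 differed by -0.64. The endothelial markers Cldn5 and Kdr were higher in aOL as well, and their part in the Adgra2 value was not tested. The decoy receptor Frzb had log2 values of 5.14 and 4.63 in aOPC compared with 7.57 and 10.19 in aOL (3.99, SE 0.94, limma adjusted p = 0.145). Kremen1, a DKK receptor, differed by 1.59 (SE 0.60, limma adjusted p = 0.216) and the decoy Sfrp4 by -2.09 (SE 0.66, limma adjusted p = 0.184). Leaving out 1 library in turn, Kremen1 ranged from 0.77 without aOPC replicate 3 to 2.42 without aOPC replicate 2, Sfrp4 was -1.20 without aOPC replicate 2, and Fzd2 ranged from -1.05 without aOPC replicate 2 to -0.23 without aOPC replicate 3. Among 16 corepressors and nuclear effectors 5 were higher without overlap, with the largest differences in Tle4 (0.74), Ctbp2 (0.67) and Bcl9l (0.61), and 6 were lower, beside the 31.9% and 29.9% of all genes. Ctbp2 was 0.34 without aOL replicate 3 and Bcl9l 0.37 without aOPC replicate 2.

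Of 114 Wnt gene bodies tested on the wider list, 1 was called by edgeR, lower in aOL, against 0.687% of all bodies in that direction. This was Sfrp1, a secreted Wnt decoy, whose body counts were lower in aOL, with 61.7 and 53.5 CPM in aOPC compared with 28.2 and 26.8 CPM in aOL (log2 difference -1.07, SE 0.13, edgeR adjusted p = 0.00286). The libraries of the populations were well apart and close within each. Over records with at least 3 reads in every library the difference was -0.23 (edgeR adjusted p = 0.746) and was no longer called. That filter takes out records at or near 0 in 1 population, so it is not independent of the difference. Sfrp1 RNA was 8.77 and 8.81 in aOPC compared with 9.25 and 9.41 in aOL (log2 difference 0.54, SE 0.19, limma adjusted p = 0.203). Of 107 promoters tested on this list, 0 were called by edgeR or DESeq2, against 0.768% of all promoters, and 1 had an unadjusted p under 0.05 by edgeR.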

How the data were processed

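RNA-sequencing and RRHP were each performed on 2 aOPC and 2 aOL libraries, replicates 2 and 3 of the titles, which set the groups. For RNA, the deposited values were normalized log2 levels per gene symbol, made by the authors from reads aligned to mm10 with BWA, counted with featureCounts and normalized with DESeq2. Their quantiles were nearly equal across the libraries, so a difference shared by most genes cannot be seen. For RRHP, the deposited values were raw read counts per CpG and strand on mm10, with promoter, exon, intron and CpG island annotation by the authors. Duplicate handling is not given in the sources used here. The promoter annotation reached from -713 to 854 bases around a RefSeq start (5th to 95th percentile). RRHP totals were 7113237 and 17121440 counts in aOPC compared with 15923775 and 27057859 in aOL. Intervals and floors cover counting error only.

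RNA was tested with limma 3.58.1 on genes with log2 of at least 5 in at least 2 libraries. For counts, edgeR 4.0.16 was used (quasi-likelihood test, TMM scaling), on records that reached 10 reads in 2 or more libraries, and on body and promoter sums after filterByExpr. All p-values were two-sided and adjusted by Benjamini-Hochberg over all features tested. A gene was called at p under 0.01 and adjusted p under 0.05, a record or sum at adjusted p under 0.05. DESeq2 1.42.0 was an alternative. R 4.3.3 and Python 3.11.15 were used, and the fits were tested on simulated data.

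The members and lists were chosen with earlier results of these data known. Every member and every called record was named, as was the most-read record of each member. From the wider list, called genes were named, and in each role up to 3 genes with the largest log2 difference among those without overlap. The genes closest to Axin2 were the 3 at the smallest Euclidean distance. Sfrp1 RNA was chosen for its called body. Other records and genes given by position or name were chosen after their values were seen. The same replicate numbers in both populations do not pair animals, since the populations came from different reporter lines. Sequences came from RefSeq GRCm38.p6, and exon numbers from GENCODE vM21. Values of 1 of the listed oligodendrocyte markers are not reported here.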

Additional observations from a re-analysis of the deposited data

How the results depend on the processing

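Depth limited the RRHP comparisons: aOPC replicate 2 had the fewest counts, promoter sums of the members rested on 0 to 219 counts per library, and island records could not be tested. With 2 libraries per population, leaving out 1 moved most counts of calls. Over these fits the number of calls ranged from 0 to 4 for member RNA, 1 to 22 for RNA of the wider list, 3 to 17 for member records, 0 to 2 for member bodies, 0 to 1 for member promoters, 1 to 33 for bodies and 0 to 2 for promoters of the wider list, and 0 to 2 for windows. In the fits without 1 aOPC library, called records that were at 0 in aOL no longer had 10 reads in 2 libraries and were not tested.

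Requiring 10 reads in every library left 0 called member records and 0 windows (every called record had under 10 reads in at least 1 library), and with no filter there were 19 records and 5 windows. DESeq2 called 7 member records. It gave no adjusted p for 1 of the 9. Sums over records with 3 reads in every library left 0 called bodies on the wider list. Alternatives chosen after seeing the data were sums without CpG island records, which called 0 member bodies and 2 bodies on the wider list, and summing both strands of a CCGG, which called 9 member sites. Shares over all features under the alternative settings, the replicate block included, are not given here. Their counts show only how the calls of the listed genes moved.

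Promoter differences changed sign with library totals in place of TMM for Ctnnb1 (-0.61), Daam2 (-0.51) and Apcdd1 (-0.46), with DESeq2 for Lrp6 (0.0046) and with the filter of 3 reads for Apcdd1 (-0.27). The Lrp6 body difference was 0.29 with that filter. None of these was called. Leaving out 1 library in turn, log2 differences crossed 0 for RNA of Axin2 (-0.18 to 0.98) and Gsk3b (-0.34 to 0.031), for bodies of Lrp6 (-0.54 to 0.015), Axin1 (-0.028 to 0.23), Axin2 (-0.080 to 0.0046) and Apcdd1 (-0.034 to 0.14), and for promoters of Ctnnb1 (-0.19 to 0.38), Lrp6 (-0.36 to 0.37), Daam2 (-0.28 to 0.87), Gsk3b (-0.59 to 0.25) and Apcdd1 (-0.022 to 0.26). The cause of these changes was not tested.

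A replicate block by number gave 0 called members in RNA, bodies and promoters, 11 called member records and 2 windows. On the wider list it gave 0 calls in RNA, 1 body and 0 promoters. Deviations of libraries with the same number correlated at -0.07 in RNA and -0.10 in RRHP records. In RRHP, aOPC and aOL libraries of the same number listed equally many sites, 1259056 for replicate 2 and 1386042 for replicate 3. Whether the numbers mark a shared batch was not tested. Refiltering, renewed quantile normalization and a variance trend left member RNA at 0 calls.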
